A study of Mus musculus with 23 samples.

Results

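Colon tumors and non-tumor colon of mice colonized with BF BSHlow were compared by RNA-seq. The comparison holds 8 of the 23 libraries of the series, 4 of tumors and 4 of non-tumor tissue, taken by the title of each sample. All 8 came from male C57BL/6 mice of genotype Cdx2Apc f/w, 6 to 8 weeks old at the start, after 12 weeks on a 60% high-fat diet. BF BSHlow is Bacteroides fragilis 638R carrying an empty vector, given by gavage after an antibiotic cocktail. The diet, the strain and the genotype were shared by the tumor and non-tumor groups, as the labels give them. Of the other libraries, 4 non-tumor tissues and 3 tumors of mice colonized with BF BSHhigh, that is, 638R into which a bsh gene, for bile salt hydrolase, was introduced, are used in the last comparison.

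In Cdx2Apc f/w mice, Cre recombinase is driven by the promoter of Cdx2, a gene of the hindgut epithelium, and removes part of 1 Apc allele. The recombined cells are therefore those of the intestinal lining and of other tissues in which that promoter is active. The labels do not tie a tumor to the non-tumor tissue of the same mouse, and they do not say how far from a tumor the non-tumor tissue lay. P-values therefore measure the spread between libraries, which the study calls independent samples.

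The APC protein holds β-catenin in a complex that marks it for destruction. When APC is lost, β-catenin enters the nucleus, binds TCF/LEF factors and turns on WNT target genes, which keep the cells at the base of a colonic crypt dividing. In a normal crypt these genes are switched off as cells move up and become absorptive colonocytes, mucus-secreting goblet cells or hormone-secreting cells. Colon adenomas are known for the persistence of the crypt-base program.

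Levels are given as counts per 1000000 (CPM) of the TMM-adjusted library size, from the expected counts per gene that the authors deposited, and values of 4 libraries stand in the order of replicates 1 to 4. Fold changes are those fitted by the quasi-likelihood test of edgeR, with Benjamini-Hochberg adjusted p-values, and a gene is called when the adjusted p-value is under 0.05 and the log2 fold change is beyond 1 in either direction. The 8 libraries held 13330888 to 17652495 counts. The first principal component of log2 CPM took 81.1% of the variance and placed the non-tumor libraries between -112.6 and -96.34 and the tumors between 97.86 and 116.5. Non-tumor replicate 4 stood apart on the second component, at -47.76 against 7.27 to 25.72 in the other non-tumor libraries. It had the lowest B cell and smooth muscle levels of its group, the highest colonocyte levels, and traces of several tumor genes, and its part in the results is given beside them.

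Of 15179 genes tested, 2443 were higher in tumors (16.1%) and 2672 were lower (17.6%). The difference was over 4-fold for 1092 of the higher and 1427 of the lower genes, and over 32-fold for 208 and 393. At an adjusted p under 0.05 in edgeR with no fold limit, 61.3% of genes differed. The groups did not overlap for 58.1% of the genes, with all 4 tumors above all non-tumor libraries for 29.7% and below them for 28.4%. With scaling by library size alone, in place of TMM, the median of all genes rose by 0.34 on the log2 scale. The share of higher genes among those called was then 64.2% in place of 47.8%. Without non-tumor replicate 4, 2512 genes were higher and 2763 lower. These shares are the background for the counts below, in which the genes of each list had been chosen with earlier results known.

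Apc is the gene of which Cre removes part of 1 allele in this model. It was counted at 138, 124, 212 and 105 CPM in non-tumor tissue and at 13.9, 11.4, 12.1 and 9.86 CPM in tumors. It fell 12.2-fold (log2 fold change -3.61 ± 0.23, SE; edgeR adjusted p = 3.79e-06), and the groups did not overlap. The count covers the whole gene and the labels give both groups the same genotype, so this level does not check the labels of genotype. Other members of the β-catenin complex differed less. Ctnnb1, which encodes β-catenin, was at 1030, 929, 1036 and 1143 CPM in non-tumor and 1583, 1853, 1738 and 2078 CPM in tumor libraries, a log2 difference of 0.81 that did not reach the fold limit. Of the 8 genes of the complex tested, Tcf7l2 (-1.5), the main TCF factor of the gut, and Tcf7l1 (-2.62), a TCF factor that mostly represses, fell beside Apc. Axin1, Gsk3b, Btrc and Csnk1a1, which encode scaffold, kinases and ubiquitin ligase of the complex, had log2 differences between 0.04 and 0.32.

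Of the genes that β-catenin is known to activate, those listed here rose almost without exception. Of 22 canonical WNT target genes tested, 21 were higher in tumors, none was lower, and the median log2 fold change was 2.96, against 0.05 over all genes tested. Axin2 (chr11:108920349-108950783 on GRCm38), a negative regulator of the pathway and its most used reporter, was at 28, 29.5, 35 and 26.6 CPM in non-tumor and 401, 379, 308 and 391 CPM in tumor libraries. All tumors lay far above all non-tumor libraries. The fitted change of Axin2 was 12.4-fold (log2 3.63 ± 0.13, edgeR adjusted p = 4.65e-07). Nkd1, which dampens Dishevelled signals, was at 5.48, 14.6, 10.2 and 19.4 CPM in non-tumor tissue and 531, 310.1, 380.0 and 825 CPM in tumors. Apcdd1, a membrane inhibitor of WNT, went from 3.24, 2.92, 2.58 and 16.6 to 652, 162, 148 and 1256 CPM. Tumors 1 and 4 held more Apcdd1 and Nkd1 than tumors 2 and 3, whereas Axin2 was near even among the 4.

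The crypt-base receptor Lgr5 rose 6.84-fold, from 8.05, 3.42, 4.93 and 7.27 CPM to 26.9, 65.8, 48.3 and 20.3 CPM, with the higher levels in tumors 2 and 3. Mmp7, a matrix protease made by adenoma cells, was at 0.498, 0.824, 0.38 and 13.8 CPM in non-tumor libraries, where replicate 4 held most of it, and at 274, 223, 397 and 229.6 CPM in tumors. Prox1 (5.87), Lef1 (4.87) and Tcf7 (2.95), all transcription factors, rose as well. The regulators of cell growth Myc (1.78) and Ccnd1 (2.14, cyclin D1) rose less, Myc from 25.3, 22.8, 28.2 and 34.2 to 92.6, 103, 108 and 77.4 CPM. Ephb3, an ephrin receptor that positions crypt cells, was the member not called, with a log2 difference of 0.78. Without non-tumor replicate 4, 19 of the 22 were called.

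Sp5, a transcription factor that is itself a direct target of the pathway, rose 86.2-fold from 0.166, 0.127, 0 and 0.749 CPM to 26.3, 17.7, 10.3 and 37.6 CPM. Without non-tumor replicate 4 its log2 fold change was 7.77 in place of 6.43. Its promoter is shown because it holds the sequence TCF/LEF factors recognize. RefSeq promoter windows on GRCm38.p6, the 250 bases before each start, were searched for CTTTGAT on both strands. Windows were at hand for 14 of the 22 WNT target genes, and those of Sp5, Mmp7 and Tnfrsf19 held the motif (21.4% of 14), against 3.72% of 27025 genes. Of these windows only that of Sp5 is clear of annotated exons. The windows of Mmp7 and Tnfrsf19 overlap exons, so their matches may lie within a transcript, though the 21.4% counts them. For these 2 genes only the bases around the match are printed. Capitals mark the match, which reads as its reverse complement, ATCAAAG, in those 2 genes, and each sequence runs 5′ to 3′ on the strand of its gene.
Sp5 promoter, chr2:70474673-70474922, plus strand: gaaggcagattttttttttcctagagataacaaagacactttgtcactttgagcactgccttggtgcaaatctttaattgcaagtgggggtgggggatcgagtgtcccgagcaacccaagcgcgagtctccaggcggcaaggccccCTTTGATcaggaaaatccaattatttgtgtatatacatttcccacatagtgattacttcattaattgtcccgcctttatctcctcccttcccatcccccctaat
Mmp7, chr9:7692091-7692110, plus strand: aacATCAAAGtagctctgag
Tnfrsf19, chr14:61038173-61038199, minus strand: tgaatgggggATCAAAGtgacaaacta
The match begins 104 bases before the start of Sp5, 247 before a start of Mmp7 and 202 before a start of Tnfrsf19, a receptor of the crypt base (log2 fold change 3.57). TTTATGG, a sequence that CDX factors recognize, was searched in the same way in the windows of 19 absorptive colonocyte genes, and none held it, against 2.83% of genes. A match is a description of the letters, and binding was not measured.

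The secreted inhibitors of WNT split. Of 10 tested, 4 were higher and 2 lower. Notum (chr11:120653788-120661175), an enzyme that removes the lipid from WNT proteins, was at 0.083, 0.444, 0 and 6.89 CPM in non-tumor libraries and 316, 177, 169.5 and 381 CPM in tumors. It rose 140.3-fold (log2 7.13 ± 1.05, edgeR adjusted p = 0.000368), and its non-tumor signal came mostly from replicate 4, without which the log2 fold change was 10.34. Wif1, which binds WNT proteins, rose from 4.07, 4.82, 2.66 and 18.1 to 445, 307, 427 and 868 CPM, and Dkk2, a ligand of the LRP co-receptor, from 0.498, 2.85, 1.75 and 5.09 to 146, 137, 163 and 217 CPM. Sfrp1 (-2.39) and Sfrp5 (-2.24), decoy receptors, fell instead. Among 9 WNT ligands and R-spondins tested, 4 were higher and 2 lower. Wnt10a rose from 0, 0.127, 0.0759 and 1.72 to 54.5, 25.1, 21.1 and 116 CPM and Wnt6 from 0.166, 0.888, 0.531 and 1.27 to 59.6, 25.5, 21.8 and 111 CPM, each higher in tumors 1 and 4 than in 2 and 3. Rspo3, the R-spondin of the stroma around the crypt base, fell 11.4-fold, from 3.74, 11, 6.22 and 2.17 to 0.555, 0.167, 1.04 and 0.22 CPM (log2 -3.52, and -4.2 without tumor 3), and Wnt2b, also of the stroma, had a log2 fold change of -1.48. Notum overlaps the exons of an antisense gene, Axin2 and Mmp7 those of predicted genes, and whether the counting used strand is not given in the sources used here.

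**Figure D1:**
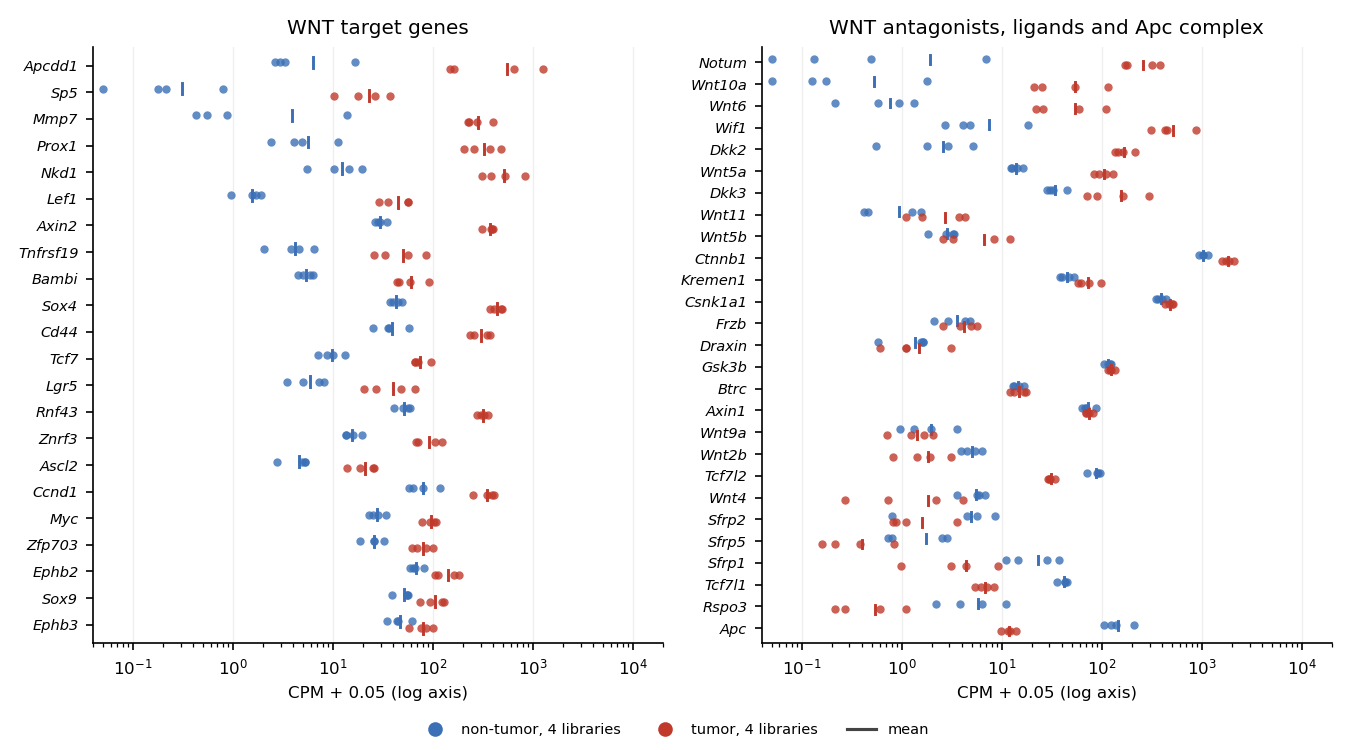
CPM of the WNT target genes (left) and of the WNT antagonists, ligands and members of the Apc complex (right) in the 4 non-tumor (blue) and 4 tumor libraries (red), on a log axis after adding 0.05, with a bar at each mean. The tumors lie above every non-tumor library for 21 of the 22 targets, and Apc lies lower in all 4 tumors.

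The genes with the largest fold changes were taken by a fixed rule, as the 12 highest and 12 lowest among called genes with groups that did not overlap, a mean of at least 10 CPM and at least 20 counts in every library of the higher group. In all, 1364 higher and 1565 lower genes met these conditions. Among the 12 higher genes were 4 of stratified, squamous epithelium, which lines skin and anal canal rather than colon. They were Dsg3, a desmosomal cadherin (20.1 to 31.7 CPM in tumors), and the keratins Krt15, Krt6a and Krt4. Dsg3 had no count in 3 non-tumor libraries and 0.375 CPM in the other. Krt15 differed widely among tumors, at 382, 327, 8.56 and 87.9 CPM, against 0.415 to 1.87 CPM in non-tumor tissue, and its adjusted p was 0.000578 with edgeR and 0.134 with limma-voom. Lgr6, a relative of Lgr5 that marks stem cells of the skin, rose from 0.083, 0.19, 0 and 0.749 to 30.9, 71.2, 37.1 and 23.9 CPM.

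The other higher genes were of several kinds. Sox11, a transcription factor of fetal tissues, was at 0.083, 0, 0 and 0.30 CPM in non-tumor and 23.5, 12.9, 14.7 and 31.9 CPM in tumor libraries. The metal-handling genes Mt4 (metallothionein, 7.37) and Slc30a2 (a zinc transporter, 7.0) rose together with Cfi (complement factor I, 7.16) and Alox12 (a lipoxygenase, 7.15). Notum, described above, was among them. AL805899.1, a noncoding RNA whose exons overlap those of Mir31, rose from 0.083, 0.127, 0 and 0.899 to 53.4, 20.8, 32 and 33.4 CPM, while the mature microRNA was not measured. In 10 of these 12 genes, all but Krt6a and Krt4, non-tumor replicate 4 held the highest level of its group. That library was the highest of its group for 38.6% of all genes tested and 35.1% of those called higher in tumors.

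The 12 lower genes were transporters, enzymes and secreted proteins, with 1 antibody segment. Slc26a3 (chr12:31390871-31473917), the chloride-bicarbonate exchanger of colonocytes, went from 669, 489, 991 and 819.6 CPM to 0.555, 0.334, 0 and 0.22 CPM. Aqp8, a water channel, went from 272, 131, 193 and 1123 to 0.222, 0.167, 0.0522 and 0 CPM, and Car4, a carbonic anhydrase, from 622, 575, 712 and 1543 to 0.499, 0.891, 0.418 and 0.441 CPM. Hao2, a peroxisomal oxidase, was at 213, 216, 148 and 658 CPM in non-tumor tissue and at most 0.111 CPM in tumors, and Pck1, an enzyme of glucose synthesis, at 144, 148, 123 and 139 and at most 0.278 CPM. Aadac, an esterase, had no count in any tumor and was at least 159-fold lower there, with 3 counts per library as the floor. The others were Hsd3b3, a steroid dehydrogenase, Sycn and Zg16, both of secretory granules, the hormone Insl5, the neuropeptide Vip and the antibody gene segment Igkv15-103. Igkv15-103 was at 162, 6.97, 4.33 and 1.5 CPM in non-tumor tissue, most of it in replicate 1. Hsd3b3 and Krt6a share reads with related genes, since 4 and 6 of their 8 values are not whole.

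**Figure D2:**
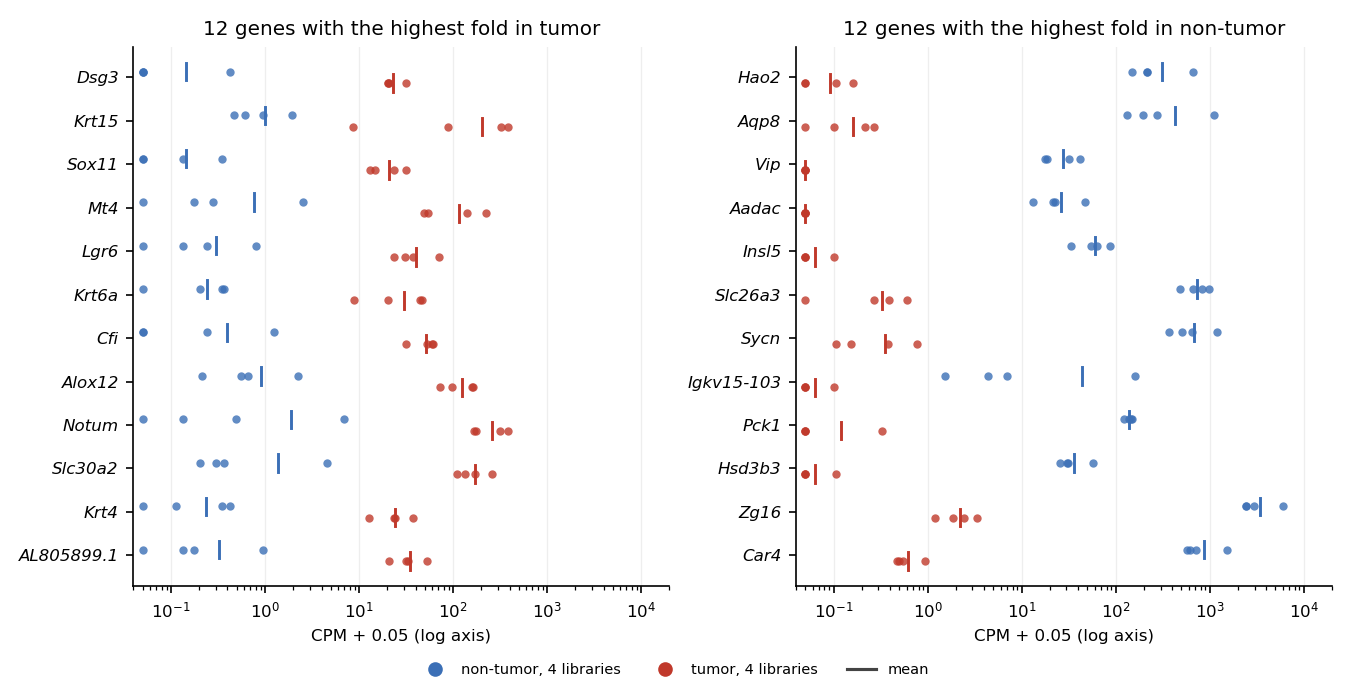
CPM of the 12 genes with the largest fold in tumors (left) and in non-tumor tissue (right), by library, on a log axis after adding 0.05, with a bar at each mean. Groups are separate by the rule that chose the genes, and Krt15 in tumors and Igkv15-103 in non-tumor tissue spread widely.

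Markers of mature absorptive colonocytes were almost all lower in tumors. In bulk tissue, fewer cells of a type and less RNA per cell cannot be told apart. Of 21 genes tested, 18 fell, 1 rose and the median log2 fold change was -4.62. Their summed level was 27380, 24070, 24620 and 34770 CPM in non-tumor libraries and 2113, 2148, 2078 and 1397 CPM in tumors. Besides the genes above, Guca2a (-5.58, guanylin), Krt20 (-4.62, the keratin of the crypt surface), Cdhr5 (-5.28, of the brush border) and Lypd8 (-6.42, which keeps bacteria off the epithelium) fell. Slc9a3, a sodium-proton exchanger of the apical membrane, went the other way. It was at 13.7, 12.6, 10.2 and 45.4 CPM in non-tumor and at 387, 317, 367 and 299.6 CPM in tumor libraries, 16.7-fold higher (log2 4.06 ± 0.48, and 4.81 without non-tumor replicate 4, edgeR adjusted p = 0.000105), and all tumors were above all non-tumor libraries.

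The wider set of ion, water and nutrient transporters behaved alike, with 21 of 28 lower and 4 higher. Slc5a8, the sodium-coupled transporter of butyrate, went from 391, 407, 457 and 263 to 1.28, 0.557, 0.627 and 1.21 CPM. The subunits of the epithelial sodium channel Scnn1a (-3.8), Scnn1b (-3.07) and Scnn1g (-6.85) fell together. The 3 that rose beside Slc9a3 carry amino acids. Slc7a11, which imports cystine, went from 7.22, 8.5, 5.46 and 13.3 to 266, 224, 194 and 201 CPM, 25.6-fold higher, while Slc7a5 (2.1) and its partner Slc3a2 (1.19), which import large neutral amino acids, rose less.

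Goblet cell genes fell as a group, with 12 of 13 tested lower, none higher and a median of -4.55 on the log2 scale. Muc2, the mucin that forms the colonic mucus, went from 2737, 2144, 1871 and 2216 to 31.7, 36.4, 22.6 and 10.5 CPM (88.6-fold lower, edgeR adjusted p = 3.51e-06). Zg16, a lectin of that mucus, went from 2936, 2434, 2427 and 6031 to 3.27, 2.4, 1.83 and 1.16 CPM, and Fcgbp, which crosslinks mucins, fell 126-fold. The levels of Fcgbp are uncertain, since 7 of its 8 values are not whole. Tff3 (-6.2, a trefoil peptide), Clca1 (-8.91, a mucus protease) and Spdef (-4.55, a goblet cell transcription factor) fell too. Ang4, an antibacterial RNase, was the member not called (log2 difference 0.32).

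Among hormone-secreting cells the picture was mixed. Of 11 enteroendocrine genes tested, 9 fell and 1 rose. Insl5, of the L cells of the colon, had 63.3, 54.2, 33.7 and 87.3 CPM in non-tumor tissue and 1 count over the 4 tumors, and Gcg, the proglucagon gene, had 24.3, 18.7, 18.4 and 39.4 CPM and 2 counts. Chga (-5.08) and Chgb (-6.58), granule proteins shared by these cells, fell as well. Pyy, the other hormone of L cells, did not follow, at 84.1, 80, 70.8 and 109 CPM in non-tumor and 13.8, 499, 263 and 56.5 CPM in tumor libraries (log2 difference 1.27 ± 0.84, edgeR adjusted p = 0.218). Tumors 2 and 3 lay above all non-tumor libraries for Pyy, and tumors 1 and 4 lay below them. Isl1, a transcription factor of endocrine cells and of neurons, rose from 1.25, 3.42, 2.96 and 2.4 to 17.7, 23.7, 13.8 and 21.7 CPM.

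Of 10 tuft cell genes, 5 fell and 1 rose, and without non-tumor replicate 4 the number that fell was 3. Dclk1 (-1.97) and Trpm5 (-2.25), a kinase and an ion channel by which these chemosensory cells are recognized, fell. Avil, an actin-binding protein used as a tuft cell marker, rose from 4.82, 3.42, 3.34 and 12.3 to 179, 177, 247 and 167 CPM (32.3-fold, log2 5.01, and 5.65 without non-tumor replicate 4). Avil shares exon positions with Tsfm, so its count is uncertain. The summed level of the tuft list was 66.35, 77.73, 45.77 and 82.04 CPM in non-tumor libraries. In tumors it was 240.2, 202, 290 and 226.6 CPM, most of it from Avil.

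General epithelial genes differed far less than these. Epcam was at 1633, 1495, 1745 and 1666 CPM in non-tumor and 934, 1324, 1346 and 962 CPM in tumor libraries, a log2 difference of -0.52, and Cdh1 (E-cadherin) had -0.72, neither beyond the fold limit. Of 12 such genes, 1 rose (Krt18, 1.5) and 3 fell (Krt8, Ocln and Cdh17, -1.31 to -1.16), and with scaling by library size alone none fell. Their median was -0.74, and all 4 tumors lay below every non-tumor library for 10 of the 12, against 28.4% of all genes tested. Claudins, the proteins of tight junctions, were divided, with Cldn4 higher, from 58.8, 21.6, 29.3 and 77.2 to 593, 677, 907 and 689 CPM. Cldn14 (-6.27), Cldn15 (-4.89), Cldn8 (-3.72) and Cldn1 (-1.62) fell, 4 of 11 tested.

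Transcription factors of the intestine followed the differentiated genes. Of 12 tested, 7 fell and none rose, with a median of -2.48. Cdx2, whose promoter drives Cre in this model, was at 23.2, 11.4, 7.06 and 21.7 CPM in non-tumor and 1.22, 0.279, 2.14 and 0.496 CPM in tumor libraries (15.1-fold lower, log2 -3.92, and -4.58 without tumor 3, edgeR adjusted p = 0.00067). Cdx1 (-3.01) and Hnf4a (-2.22), which sustain intestinal identity, fell, as did Klf4 (-3.92), of the crypt surface. Atoh1, required for all secretory cells, went from 62.2, 42, 43.7 and 51.9 to 1.44, 1.73, 0.679 and 0.165 CPM. Hes1, which represses Atoh1 downstream of Notch, was not called (log2 difference -0.45). Among 13 Notch genes 7 rose and 2 fell, and Hes6 rose with little spread, from 58.9, 56.2, 60.3 and 58 to 264, 287, 273 and 282 CPM. The ligand Jag2 (3.32) and the target Hey1 (3.35) rose while the ligand Dll1 (-1.39) fell.

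Hox genes differ by level along the body. Hoxd13, of the hindmost gut, was at 136, 133, 170.0 and 10.3 CPM in non-tumor and 128, 211, 12.3 and 91.6 CPM in tumor libraries (log2 difference -0.02). Non-tumor replicate 4 and tumor 3 thus stood far below the rest of their groups. Hoxb13, also hindmost, fell from 521, 454, 626 and 596 to 223, 217, 203 and 244 CPM and Hoxa13 fell (-1.34), while Hoxa9 rose from 33.5, 27.1, 26.9 and 32.1 to 101, 104, 119 and 93.1 CPM. In all, 3 of 20 tested rose and 4 fell, a share near the 33.7% of all genes called in either direction.

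Genes of intestinal stem cells were mostly higher, 10 of 14 with 2 lower and a median of 1.51. Besides Lgr5 and Axin2 these included Ascl2 (2.19), the stem cell transcription factor, Smoc2 (1.91) and Msi1 (4.84), an RNA-binding protein. Lrig1 (-1.59), a brake on EGF receptors in stem cells, and Rgmb (-1.5) fell. Some of these are WNT targets as well, so the lists share members. Of 16 genes of the regenerating or fetal-like epithelium, 8 rose and 1 fell. Ereg, an EGF family ligand, rose from 3.74, 7.8, 2.12 and 16.3 to 47.7, 78.7, 115 and 99.8 CPM. Ly6a (log2 difference 0.10) and Clu (1.0), the best known genes of that state, were not called, Ly6a with 7 of 8 values not whole.

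Squamous genes were mostly higher. Of 16 genes, 11 passed the filter on low counts, 9 were higher and none lower, with a median of 4.58 (3.45 with Tmprss11b, which has no count in non-tumor tissue, at its bound). Krt14, a keratin of basal squamous cells, was at 0.913, 1.58, 2.05 and 2.1 CPM in non-tumor and 37.7, 133, 92.1 and 32.8 CPM in tumor libraries, with 6 of 8 values not whole. Trp63 and Krt5, which define the basal layer of squamous tissue, were near 0 in both groups, with at most 2 and 7 counts in any library. Sprr1a (2.21) and Mal (3.45) rose, and Sfn was not called (-0.12).

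**Figure D3:**
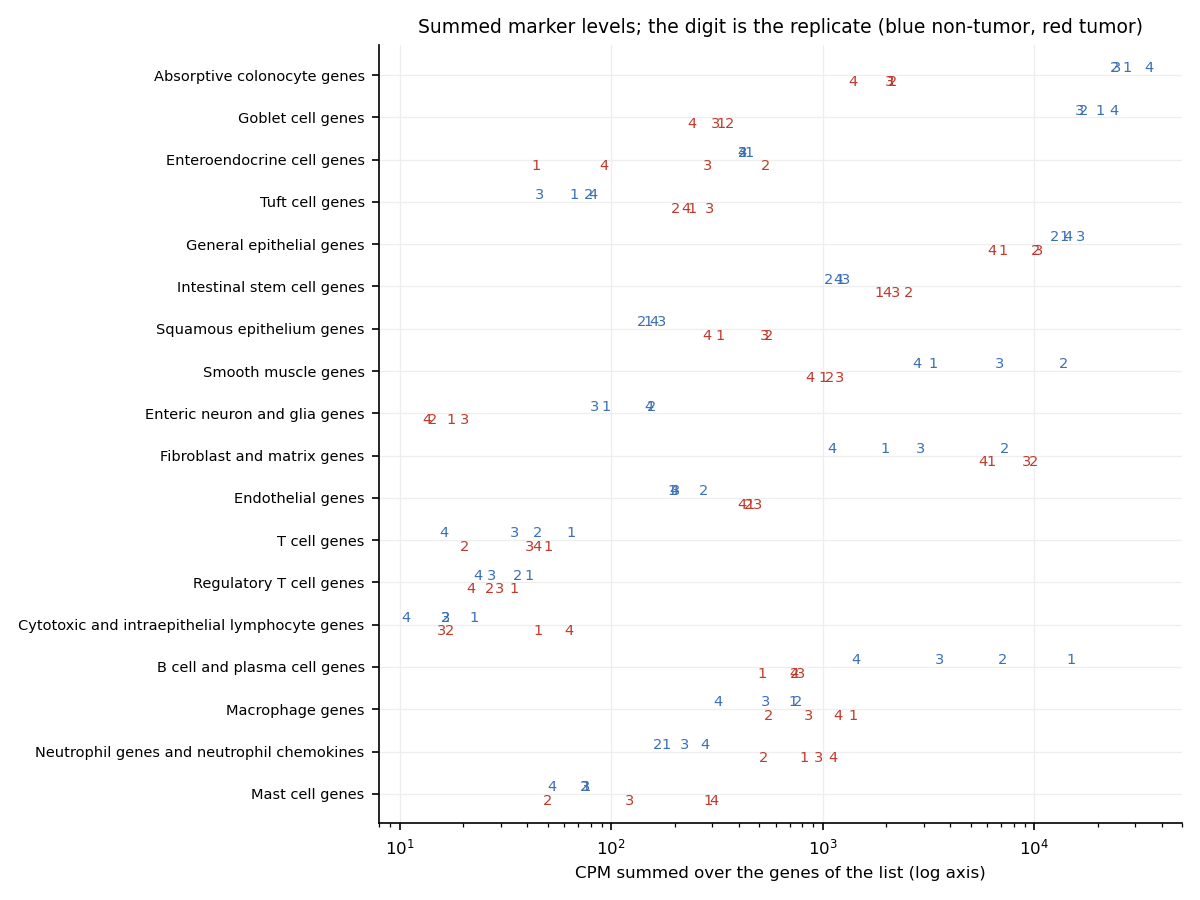
CPM summed over each list of cell type genes, by library, on a log axis, with the digit giving the replicate (blue non-tumor, red tumor). Colonocyte, goblet, general epithelial, neuron, smooth muscle and B cell sums are lower in every tumor than in any non-tumor library. Tuft, stem cell, squamous, endothelial and neutrophil sums are higher in every tumor. Single genes make up most of some sums, so these need not follow the cell type. They are Avil (tuft) and Sdc1 (B cell) in tumors and Ly6g (neutrophil) in non-tumor tissue. Non-tumor replicates 1 and 4 are over 10 times apart in B cell and plasma cell genes.

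Growth factors of the mesenchyme and epithelium moved in both directions. Of 16 BMP genes, whose signals oppose WNT at the crypt surface, 7 rose and 6 fell. The targets Id3 (2.26) and Id2 (2.12) rose with the ligand Bmp7, which went from 5.15, 6.53, 4.86 and 7.04 to 77.5, 72.4, 59.9 and 122 CPM. The ligand Bmp3 fell from 31.1, 36.6, 41.4 and 45.4 to 1.5, 0.39, 1.41 and 0.826 CPM, and the antagonist Chrdl1 fell (-4.03). In the EGF family 4 of 11 rose and 3 fell. The ligand Nrg1 rose from 1.58, 2.35, 4.02 and 4.95 to 61.1, 49.8, 48.1 and 65.5 CPM, while its receptors Erbb3 (-2.1) and Erbb2 (-1.4) fell. Egfr had a log2 difference of -0.23.

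Genes of DNA replication and mitosis were higher in 21 of 26 cases, none lower, with a median of 1.47. Top2a, which untangles replicated DNA, rose from 64.4, 60.1, 66.4 and 50.4 to 167, 338, 289.7 and 170.0 CPM and Ccne1 (cyclin E1) from 3.9, 4.57, 2.5 and 5.77 to 15.1, 20.7, 19.2 and 16.9 CPM. Mki67, the usual stain for dividing cells, was at 130.5, 111, 146 and 68.7 CPM in non-tumor and 164, 282, 242 and 132 CPM in tumor libraries and stayed under the fold limit (0.85 ± 0.29, edgeR adjusted p = 0.0293). Tumors 2 and 3 held more of these transcripts than tumors 1 and 4, with summed levels of 1428, 2421, 2096 and 1444 CPM. Ribosome biogenesis genes shifted by less, 10 of 23 higher with a median of 0.98, close to the limit of 1. With scaling by library size alone 21 were called.

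Genes that sense, carry or answer to bile acids were mostly lower. Of 13 tested, 9 fell and 2 rose, with a median of -3.92. Nr1h4, which encodes the bile acid receptor FXR, was at 58.5, 38.9, 41.7 and 54.9 CPM in non-tumor and 4.38, 1.56, 2.56 and 3.36 CPM in tumor libraries, 16.3-fold lower (log2 -4.03 ± 0.30, edgeR adjusted p = 7.68e-06). Vdr, the vitamin D receptor that also binds lithocholic acid, went from 422, 334, 464 and 439 to 17.8, 20.3, 12.9 and 7.43 CPM (28.4-fold lower). Nr1i2 (PXR, -3.86) and Fabp6 (the ileal bile acid binding protein, -4.77) fell. Slc51b, a subunit of the basolateral exporter, was at 4.98, 5.01, 3.95 and 17 CPM in non-tumor tissue and had 3 counts over the 4 tumors. Abcc2, an apical pump for conjugates, rose from 1.83, 1.58, 1.37 and 4.57 to 85, 44.4, 63.5 and 118 CPM (33.2-fold), and S1pr2, a receptor for conjugated bile acids, rose from 10.8, 10.9, 5.69 and 4.27 to 21.4, 24.6, 22 and 19.8 CPM. Gpbar1, which encodes the membrane receptor TGR5, did not pass the filter, with at most 13 counts in a non-tumor and 5 in a tumor library.

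Enzymes that handle foreign compounds and steroids fell with them, 16 of 18 against 2 higher, at a median of -4.58. Sult1b1, a sulfotransferase, went from 210.5, 198, 234 and 322 to 1.94, 0.446, 0.209 and 0.551 CPM and Cyp2s1 fell 134-fold. Retinoid genes were split. Adh1, which oxidizes retinol, went from 1539, 1428, 1501 and 1422 to 12.7, 3.79, 11.1 and 8.92 CPM and Rbp2 fell (-5.85). Stra6, the receptor that takes up retinol, rose from 5.56, 12.2, 5.24 and 17.5 to 548, 359.8, 432 and 802 CPM (52.7-fold), and the retinoic acid receptor Rarb rose too (4.18). In all 7 of 15 were higher and 5 lower.

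Fatty acid oxidation genes were lower in 17 of 23 cases, with 1 higher and a median of -1.60. Their summed level was 2807, 2577, 2643 and 5883 CPM in non-tumor and 1264, 1348, 1311 and 1383 CPM in tumor libraries, with the most in non-tumor replicate 4. Ppargc1a (-2.23), which drives mitochondrial growth, and Ppara (-3.06), a fatty acid sensor, fell. Of nuclear genes of oxidative phosphorylation 11 of 18 fell (median -1.11), and 9 of 13 genes of the mitochondrial genome fell (median -1.11). Both counts depend on scaling, being 2 and 1 by library size alone, and without non-tumor replicate 4 both were 6. Glycolysis and hypoxia genes were called in 3 of 18 cases, of which Slc16a3, a lactate exporter, rose from 23.2, 28.9, 25.5 and 64.4 to 102, 252, 280.4 and 139.6 CPM.

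Genes of the muscle wall and its nerves were lower in tumors. Of 18 smooth muscle genes 17 fell, none rose, and the median was -3.41. Myh11, the smooth muscle myosin, was at 473, 1867, 1161 and 399 CPM in non-tumor and 21, 16.6, 15.8 and 19.4 CPM in tumor libraries, and Des (desmin) at 247, 1448, 516 and 223 and 7.44, 7.69, 10.2 and 10.7 CPM. The non-tumor libraries differed among themselves, replicate 2 holding the most. Of 16 genes of enteric neurons and glia 13 fell, with a median of -4.46 (-3.84 with the 4 genes at 0 in every tumor set at their bound). Vip, a transmitter of these neurons, was at 17.8, 41.7, 18.6 and 31.8 CPM in non-tumor tissue and at 0 in all tumors, at least 168-fold lower. Chrna3, a receptor of these neurons, and Sox10, which defines the glia, were also at 0 in all tumors, Sox10 against 0.835 to 2.66 CPM in non-tumor tissue.

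Matrix genes did not follow the muscle. Of 20 fibroblast and matrix genes 9 rose and 2 fell, and without non-tumor replicate 2, the library rich in muscle genes, 16 rose. Col4a1, of basement membranes, rose from 139, 268, 140.0 and 139 to 733, 958, 1039 and 669.7 CPM. Col1a1, the main fibrillar collagen, was at 111, 563, 153 and 42.5 CPM in non-tumor and 505, 1310, 954 and 305 CPM in tumor libraries and was not called (1.82 ± 0.76, edgeR adjusted p = 0.0629), though it was without non-tumor replicate 2 (log2 2.91, edgeR adjusted p = 0.00431), in the fit of all 15 libraries (1.83, edgeR adjusted p = 0.0177) and with limma-voom (2.22, adjusted p = 0.0275). Spp1 (osteopontin) rose from 0.083, 2.85, 0.304 and 2.1 to 89.6, 156, 128 and 123 CPM. Lum (lumican, -3.01) and Fap (-1.76) fell, though for Lum the groups overlapped.

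Proteases that cut the matrix rose in 14 of 17 cases, none lower, with a median of 3.35. Mmp13, a collagenase, went from 4.32, 2.54, 1.9 and 40.3 to 352, 921, 1168 and 254 CPM and Mmp10, a stromelysin, from 2.33, 1.52, 0.759 and 39.6 to 386, 799, 959 and 394 CPM. Non-tumor replicate 4 held far more of both than the other non-tumor libraries and still lay under every tumor. For Mmp10, 4 of 8 values are not whole. Plau (3.35), of plasminogen activation, and the inhibitor Timp1 (2.87) rose. Endothelial genes rose in 7 of 14 cases and fell in 1. Cdh5 (VE-cadherin) went from 9.63, 17.9, 12.8 and 13.9 to 65.3, 61.9, 63 and 68.1 CPM, while Pecam1 (0.64) and Kdr (0.43) were not called.

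B cell and plasma cell genes had the lowest median of the 46 lists, -6.41, with 13 of 14 tested lower. Igha, the IgA heavy chain, was at 8273, 3542, 1758 and 583 CPM in non-tumor and 14.2, 2.34, 26.9 and 1.71 CPM in tumor libraries, and Jchain, which joins IgA, at 1693, 917, 458 and 165 and 3.44, 0.891, 4.28 and 0.11 CPM. The non-tumor values spread widely, with replicate 1 highest and replicate 4 lowest, yet every one lay above every tumor (Jchain 368-fold lower, edgeR adjusted p = 0.000162). The log2 fold change of Jchain was -8.52, and -7.87 without non-tumor replicate 1 and -9.12 without tumor 3. Cr2, of B cells in lymphoid follicles, was at 30, 23.8, 15.7 and 1.57 and 0.0555, 0, 0.0522 and 0 CPM. Sdc1, a plasma cell marker that epithelial cells also express, rose from 199, 185, 235 and 302 to 479, 728, 726 and 722 CPM. Pigr, which carries IgA across the epithelium, fell from 7480, 6760, 4874 and 6559 to 284, 248, 329 and 135 CPM.

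T cell transcripts were scarce in both tissues. Their summed level was 64.4, 45, 34.7 and 16.1 CPM in non-tumor and 50.2, 20.2, 41 and 44.5 CPM in tumor libraries, and of 13 tested 1 rose and 3 fell. Cd3e had a log2 difference of -1.24 ± 0.68 and Cd4 one of -1.03 ± 0.68, neither called, and Cd8a fell from 2.57, 1.71, 1.14 and 0.674 to 0.61, 0, 0.157 and 0 CPM. Foxp3, the factor of regulatory T cells, was at 1.66, 1.14, 0.759 and 0.225 CPM in non-tumor and 1.11, 0.223, 1.2 and 0.22 CPM in tumor libraries (-0.45 ± 0.72, edgeR adjusted p = 0.611). Zap70, a kinase of T cell receptor signaling, rose from 1.41, 1.33, 1.9 and 1.05 to 14.5, 3.45, 4.28 and 20.3 CPM, and Cd244a, a receptor of natural killer cells, from 2.99, 1.4, 2.2 and 1.2 to 29.2, 13.5, 9.97 and 53.7 CPM, both highest in tumors 1 and 4. Of 10 regulatory T cell genes 1 rose and 1 fell, and of 5 cytotoxic lymphocyte genes tested 1 rose and 3 fell. Without non-tumor replicate 1 no T cell gene was called lower, and without tumor 1 6 were. Prf1 and Nkg7, which define cytotoxic cells, did not pass the filter, with at most 5 counts in any tumor. Of the other cytotoxic genes that did not pass it, Gzma, Gzmb and Eomes reached 57, 34 and 14 counts in a tumor. In non-tumor tissue these reached 9, 4 and 4. Xcl1 and Tbx21 reached 2 and 3 counts in a tumor and 10 each in non-tumor tissue. The summed level of the cytotoxic list was 22.51, 16.42, 16.47 and 10.71 CPM in non-tumor and 45.11, 17.22, 15.82 and 62.95 CPM in tumor libraries.

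Ccl28, a mucosal chemokine made by colonocytes that draws IgA plasma cells and regulatory T cells, fell in all tumors. It was at 380.1, 346, 242 and 297 CPM in non-tumor and 2.27, 2.84, 2.77 and 1.27 CPM in tumor libraries, 138-fold lower (log2 -7.11 ± 0.28, edgeR adjusted p = 6.04e-07). The paper describes Ccl28 as positively regulated by β-catenin, and it was not in the list of 22 WNT target genes above. Of 22 chemokines of mucosal and inflammatory homing 6 rose and 8 fell. Cxcl13 (-3.39), of B cell follicles, and Ccl6 (-3.07) fell. Ccl3 and Ccl4 rose with a wide spread among tumors, Ccl3 at 10.8, 1.28, 50.8 and 1.93 CPM against at most 0.599 CPM in non-tumor tissue. Cxcl14 rose from 13.9, 11.3, 11.2 and 11.9 to 185, 52.9, 96.6 and 144 CPM.

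Neutrophil genes and the chemokines that attract these cells had the highest median of the 46 lists, 4.88, with 15 of 16 higher. With at least 10 counts required in every library, which removes genes low in non-tumor tissue, 3 were called higher. S100a8, which fills the cytosol of neutrophils, was at 0.166, 0.571, 0.152 and 4.5 CPM in non-tumor and 36.1, 12.2, 24.4 and 110.2 CPM in tumor libraries, and Cxcr2, their chemokine receptor, at 0.166, 0.444, 0.152 and 0.674 and 8.88, 4.62, 6.01 and 13.9 CPM. Cxcl5 rose from 1.5, 0.38, 0.835 and 17.9 to 251, 133, 119.8 and 292 CPM, Il1b from 1.66, 3.11, 1.67 and 4.27 to 46.7, 31.6, 35.8 and 41.8 CPM and Il11, a cytokine of the stroma, from 0.083, 0.254, 0.531 and 5.99 to 49.3, 101, 132 and 44.7 CPM. Ly6g, whose protein is the usual surface marker of mouse neutrophils, went against the list. It was at 174, 154, 213 and 204 CPM in non-tumor and 6.27, 7.97, 7.78 and 6.94 CPM in tumor libraries, 25.7-fold lower (log2 -4.68 ± 0.14, edgeR adjusted p = 2.30e-07), with no overlap and little spread in either group. Lcn2, an iron-binding defense protein of neutrophils and epithelium, rose from 0.747, 1.84, 0.607 and 15.1 to 116, 91.3, 216 and 294 CPM.

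Macrophage genes were called in 4 of 16 cases. Arg1, an arginase of tissue-repair macrophages, rose from 0.332, 0.127, 0.38 and 5.02 to 31.1, 58.8, 55 and 43.2 CPM, Cd163 fell (-4.35), and the general markers Csf1r (0.38), Adgre1 (0.55) and C1qa (0.74) were not called. Of 9 mast cell genes tested 5 rose and 2 fell. The proteases Mcpt1 (3.84) and Mcpt2 (3.15), of mucosal mast cells, rose. Hdc, which makes histamine, rose from 1.25, 0.698, 0.304 and 4.57 to 173, 19.3, 36.4 and 225 CPM, tumors 1 and 4 holding the most, and Kit fell (-1.78), which pacemaker cells of the muscle wall also express. Of antibacterial genes 6 of 17 rose and 7 fell. Itln1 (intelectin, 4.89) and Pla2g2a (4.24) rose, and Saa1 (-8.36) and Dmbt1 (-6.17), of the colonic surface, fell.

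Prostaglandin genes changed at both ends of the pathway. Ptgs2, the inducible cyclooxygenase COX-2, rose from 1.66, 6.72, 4.25 and 14.2 to 52.8, 126, 182 and 83 CPM (16.5-fold, log2 4.04, and 4.69 without non-tumor replicate 4, edgeR adjusted p = 0.000447), and Ptges, the synthase of prostaglandin E2, rose (2.79). Hpgd, which degrades prostaglandins, fell from 198, 201, 247 and 239 to 26.2, 10.2, 12.1 and 17 CPM, as did the importer Slco2a1 (-1.86) and the receptor Ptger3 (-6.9). In all 3 of 12 rose and 5 fell. Of 16 genes of MHC class I and II antigen presentation 3 fell and none rose, with a median of -1.14. H2-Ab1 was at 221, 204, 138 and 65.1 CPM in non-tumor and 158, 16.3, 32.6 and 27.8 CPM in tumor libraries, tumor 1 lying with the non-tumor tissues, and without tumor 1 the number that fell was 12. Interferon-stimulated genes were called in 4 of 19 cases. Usp18 rose from 3.65, 2.47, 1.06 and 2.7 to 44.8, 19.7, 25.5 and 66.3 CPM and Ifit2 rose (1.99), and Irf7 (-2.04) and Oas1a (-1.84) fell, Oas1a with no whole value in any library. Among 12 immediate early genes 4 rose and 1 fell, with Fosl1 rising from 0.664, 0.254, 0.304 and 0.974 to 4.44, 13.1, 14.5 and 3.91 CPM.

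**Figure D4:**
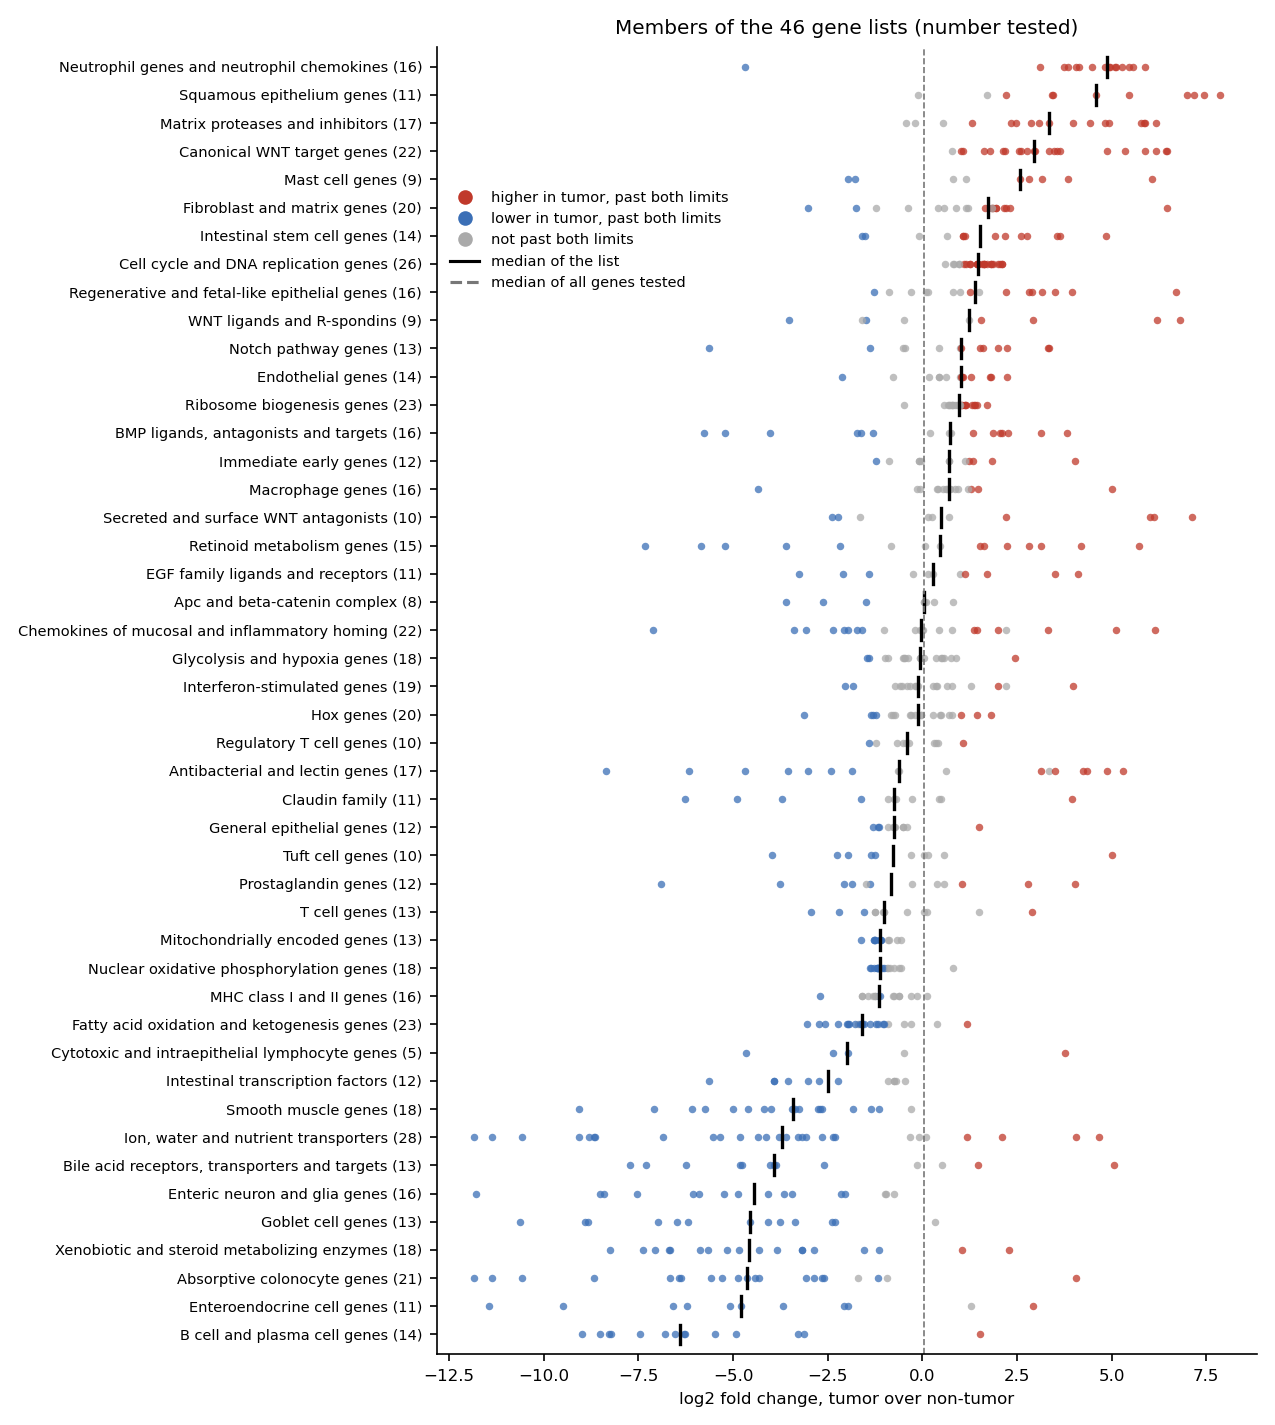
Log2 fold change of tumors over non-tumor tissue for the tested members of the 46 lists, ordered by median (black bars), with called genes in red (higher) and blue (lower) and others in grey. The medians run from -6.41 for B cell and plasma cell genes to 4.88 for neutrophil genes, and single genes such as Ly6g and Slc9a3 lie far from their list.

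Whether the same difference held in mice with BF BSHhigh was tested by an interaction term over the 15 libraries of 12 weeks. The 2 comparisons share no library. Of 16454 genes tested, 160 had a higher log2 ratio of tumor to non-tumor in BSHhigh mice (0.972%) and 1 had a lower ratio (0.00608%). Of the 668 genes of the lists that were tested, 36 were among the 160. Of the 160, 159 were also tested in the BSHlow comparison, and all 159 were called lower in BSHlow tumors. The gene with a lower ratio was Dync1i1, a dynein chain. By list, 8 of 21 colonocyte genes, 7 of 28 transporters, 5 of 13 goblet genes and 4 of 11 enteroendocrine genes were called. No member of the WNT target, stem cell, matrix or squamous lists was called. Outside these lists, Thbs4, a matrix glycoprotein, and Timp4, an inhibitor of matrix proteases, were called (differences 6.09 and 1.93).

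Slc26a3 had a log2 ratio of -11.36 in BSHlow and -4.54 in BSHhigh mice, a difference of 6.82 ± 0.93 (SE; edgeR adjusted p = 0.00595). Its level was 42.6, 17.3 and 3.76 CPM in the 3 BSHhigh tumors, called a, b and c here, against a mean of 0.275 CPM in BSHlow tumors on the scale of all 15 libraries. Zg16 was at 1215, 121 and 81.2 CPM in these tumors against 2.15 CPM (difference 7.18 ± 1.11, edgeR adjusted p = 0.01). Ccl28 was at 67.9, 38.2 and 14.1 CPM against 2.27 CPM (difference 3.92 ± 0.55, edgeR adjusted p = 0.00595), Vdr at 68.1, 46.2 and 36.9 against 14.5 CPM, and Ly6g at 83.7, 45.8 and 26.8 against 7.18 CPM. For Axin2, whose difference was -0.11 ± 0.21 (edgeR adjusted p = 0.95), the levels were 207, 323 and 267 against 366 CPM. Tumor a was the highest of the 3 for 149 of the 159 genes and tumor c the lowest for 146. All 3 were above the BSHlow mean for all 159, which is no separate evidence, since these libraries served to choose the genes. Without tumor a 86 genes were called higher, without tumor c 334, and limma-voom called none in either direction. The part of differing colonocyte content between tumor pieces in these differences was not tested.

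**Figure D5:**
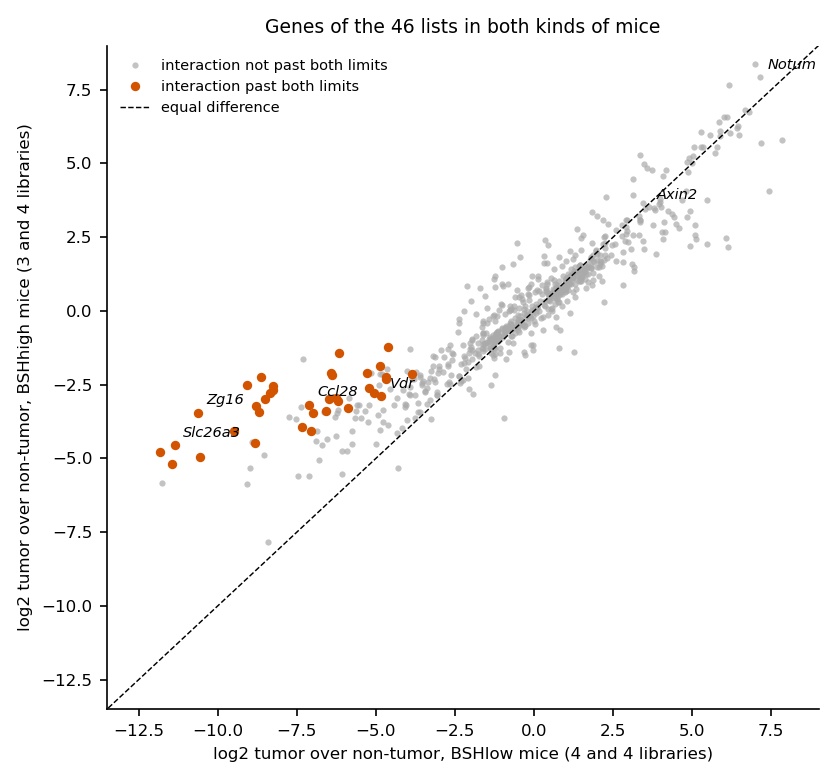
Log2 fold change of tumor over non-tumor in BSHlow (horizontal) and BSHhigh mice (vertical) for 668 genes of the lists, with the 36 past both limits of the interaction in orange and a dashed line where both are equal. All 36 lie above the line at negative BSHlow values, and Axin2 lies near it.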

How the data were processed

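Per the labels and the study's methods, RNA was taken with the RNeasy Plus Mini Kit, sequenced in pairs on a NextSeq, trimmed with Cutadapt, aligned to mm10 with STAR and counted with RSEM. The methods give a stranded mRNA preparation and gavage every few days, the labels a stranded total RNA preparation and colonization 2 times a week. The authors deposited expected counts per gene and library, not normalized. Their gene identifiers and names are those of GENCODE release 21 for mouse. RSEM divides reads that fit several genes, and 4.37% of the values in the 8 libraries were not whole, while 1 gene with a text entry was left out. The header of the table repeats the names of 3 BSHlow tumors over the BSHhigh tumors, and only the first occurrence was read as BSHlow. The 8 columns of 2-week normal colon were not used. In 1 gene of 1996 compared, Il7r in BSHlow tumor 2, the deposited value differed from the study's supplementary copy, and the deposited one was kept.

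Expected counts were rounded and tested with edgeR 4.0.16 in R 4.3.3 (TMM, filterByExpr, quasi-likelihood test, 4 tumor against 4 non-tumor libraries, no covariate), with Benjamini-Hochberg adjustment over all genes tested. Standard errors were taken as the log2 fold change over the root of its F statistic. The step was run on simulated counts with 200 genes changed. Far more genes differ in these data, so that run does not test the scaling used here. The interaction used all 15 libraries of 12 weeks. No pair of replicates agreed within sampling noise (chi-square per degree of freedom 19.9 to 68.0 in 12 pairs). Genes named are the 12 highest and 12 lowest by the rule in the text, genes the study names for these tissues, and members of 46 lists (740 genes, 668 tested) with the largest change, a defining role or a direction against their list. The members and lists were chosen with earlier results of these data known. Alternatives were DESeq2 1.42.0, limma-voom (limma 3.58.1), scaling by RLE, upper quartile or library size alone, no filter or 10 counts in every library, a fit of all 15 libraries, the replicate number as a block, and each library left out in turn. Depth of 13330888 to 17652495 counts per library makes 3 counts equal to 0.223 CPM in non-tumor and 0.164 CPM in tumor libraries, used as the floor. This covers counting error only. Some members of the lists are not reported by name here. Figures were drawn in Python 3.11.15 with matplotlib.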

Additional observations from a re-analysis of the deposited data

Results flagged for a closer look

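In groups of 4 libraries, a value was singled out where its gap to the nearest other library was over Dixon's limit for 4 values, as a share of the range of the group. Of 413 groups of named genes with any spread, 55 held such a value. The limit gives about 1 in 20 for independent values of a normal distribution. CPM of chosen genes in the same libraries are not such values, so the count is not weighed against that rate. In 7 of the 55 the other 3 libraries were at 0, and that rate does not hold for such groups either. Non-tumor replicate 4 was the high library in 28 of them, and it held the highest level of its group for 38.6% of all genes tested. Among genes that were higher in tumors its levels were Apcdd1 16.6 CPM (others 2.58 to 3.24), Mmp7 13.8 CPM (others 0.38 to 0.824), Notum 6.89 CPM (others 0 to 0.444) and Wif1 18.1 CPM (others 2.66 to 4.82). It also stood out for Wnt10a 1.72 CPM (others 0 to 0.127), Dsg3 0.375 CPM (others 0), Mt4 2.47 CPM (others 0 to 0.228) and Slc30a2 4.57 CPM (others 0.152 to 0.317). Further genes of this kind were Cfi 1.2 CPM (others 0 to 0.19), AL805899.1 0.899 CPM (others 0 to 0.127), Slc9a3 45.4 CPM (others 10.2 to 13.7) and Avil 12.3 CPM (others 3.34 to 4.82). The same library was high for Abcc2 4.57 CPM (others 1.37 to 1.83), Slc16a3 64.4 CPM (others 23.2 to 28.9), Mmp13 40.3 CPM (others 1.9 to 4.32) and Mmp10 39.6 CPM (others 0.759 to 2.33). It also stood out for S100a8 4.5 CPM (others 0.152 to 0.571), Cxcl5 17.9 CPM (others 0.38 to 1.5), Il11 5.99 CPM (others 0.083 to 0.531) and Lcn2 15.1 CPM (others 0.607 to 1.84). Further genes of this kind were Arg1 5.02 CPM (others 0.127 to 0.38) and Itln1 3.45 CPM (others 1.4 to 1.74). Among the other genes, its levels were Aqp8 1123 CPM (others 131 to 272), Car4 1543 CPM (others 575 to 712), Hao2 658 CPM (others 148 to 216) and Zg16 6031 CPM (others 2427 to 2936). It likewise held Slc51b 17 CPM (others 3.95 to 5.01) and Rbp2 66.7 CPM (others 20.7 to 26).

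Non-tumor replicate 1 was the high library for Igkv15-103 162 CPM (others 1.5 to 6.97) and Fcgbp 5583 CPM (others 4719 to 4837). Non-tumor replicate 1 was the low library for Ascl2 2.74 CPM (others 4.88 to 5.25). Non-tumor replicate 2 was the high library for Col4a1 268 CPM (others 139 to 140.0) and Timp1 7.67 CPM (others 1.44 to 2.25). Non-tumor replicate 3 was the low library for Dclk1 11.5 CPM (others 22.5 to 22.9). Non-tumor replicate 4 was the low library for Chgb 79.1 CPM (others 146 to 153). Tumor 1 was the high library for Pck1 0.278 CPM (others 0), Cldn15 4.27 CPM (others 1.62 to 1.78), Kdr 26 CPM (others 16.2 to 17.7) and H2-Ab1 158 CPM (others 16.3 to 32.6). It was also so for Oas1a 30.5 CPM (others 14.3 to 16.6) and Hsd3b3 0.0555 CPM (others 0). Tumor 1 was the low library for Sdc1 479 CPM (others 722 to 728). Tumor 2 was the high library for Dsg3 31.7 CPM (others 20.1 to 20.7), Chga 3.9 CPM (others 1.55 to 1.72), Cdx1 60.7 CPM (others 33.3 to 34.6) and Erbb2 132 CPM (others 99.5 to 105). Tumor 2 was the low library for Rarb 20.4 CPM (others 47.5 to 51.7). Tumor 3 was the high library for Igkv15-103 0.0522 CPM (others 0), Insl5 0.0522 CPM (others 0), Gcg 0.104 CPM (others 0) and Dclk1 8.51 CPM (others 3.62 to 4.11). It was also so for Avil 247 CPM (others 167 to 179) and Cldn14 0.157 CPM (others 0.11 to 0.111). Tumor 4 was the high library for Slc51b 0.165 CPM (others 0). Tumor 4 was the low library for Nr1i2 3.58 CPM (others 7.42 to 8.02).

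The difference between tumor and non-tumor tissue itself differed between BSHhigh and BSHlow mice for 30 of 209 named genes, by the interaction term of edgeR over 15 libraries. All had a higher log2 ratio in BSHhigh mice, with adjusted p from 0.00156 to 0.0482. Over all 16454 genes tested the share called was 0.978%, and limma-voom called none. Some named genes were chosen for a large fold change in BSHlow mice, which itself enters this difference. Their share is therefore not comparable with that over all genes. The log2 differences between the ratios were Slc26a3 6.82, Aqp8 7.05, Car4 5.62, Hao2 8.20, Pck1 6.08, Krt20 3.40, Cdhr5 3.17 and Lypd8 4.30. They were Slc5a8 5.24, Muc2 3.46, Zg16 7.18, Fcgbp 3.53, Tff3 3.13, Insl5 6.24, Gcg 5.42 and Chga 2.28. For further genes the values were Chgb 3.18, Cldn14 3.32, Vdr 1.93, Nr1i2 1.73, Sult1b1 5.72, Cyp2s1 2.99, Adh1 3.41 and Jchain 5.53. The rest were Pigr 2.38, Ccl28 3.92, Ly6g 2.45, Saa1 5.57, Dmbt1 4.74 and Sycn 5.88. Some sizes rest on few counts in BSHlow tumors and are uncertain. The most in any BSHlow tumor was 1 count for Insl5, 2 for Gcg and Hao2, 3 for Cldn14, 4 for Aqp8 and 5 for Pck1.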

How the results depend on the processing

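The counts of genes higher and lower in tumors stayed within 1.5 times of 2443 and 2672 under every alternative run, from 1717 (10 counts in every library) to 3635 (library size alone) and from 1860 to 3386 (no filter). Leaving out 1 library gave 2349 to 2569 higher and 2620 to 2942 lower genes. No called gene was called in the opposite direction. DESeq2 called 2376 and 2822 and limma-voom 2374 and 2679. The interaction depended on the tool, with a higher log2 ratio of tumor to non-tumor in BSHhigh mice for 379 genes and a lower one for 8 by DESeq2, and 0 and 0 by limma-voom, where 1360 genes had an unadjusted p under 0.05 (1580 with edgeR). Leaving out 1 of the 15 libraries gave 86 to 334 genes with a higher and 0 to 5 with a lower ratio, the extremes being without BSHhigh tumor a (86) and without tumor c (334), and it was 87 without BSHhigh non-tumor replicate 1, 89 without replicate 3, 95 without replicate 4, 105 without replicate 2 and 97 without BSHlow tumor 4. The cause was not tested.

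Of 209 named genes, 182 kept direction and side of the threshold under all alternatives that tested them. Calls were lost by limma-voom for Krt15, Ccl3, Ccl4, Hdc and Lum, and by library size alone for Hoxb13, Krt8, Cdh17 and Ocln. Cd8a (adjusted p in edgeR 0.0598 and 0.0539) was lost without non-tumor replicate 1 or tumor 3, and Sfrp5 (0.0511 to 0.061) without non-tumor replicates 2 or 3 or tumors 1 or 4. Calls were gained with library size alone by Ctnnb1 (1.15), Ephb3 (1.11), Clu (1.3), Mki67 (1.16) and Col1a1 (2.1), without tumor 1 by Pyy (1.68), Cd3e (-2.04) and H2-Ab1 (-2.63), without tumor 4 by Mki67 (1.01) and Col1a1 (2.08), and without non-tumor replicate 2 by Col1a1 (2.91). Col1a1 was also called with limma-voom (2.22), all 15 libraries (1.83) and the replicate block (2.23), and H2-Ab1 with limma-voom (-1.86) and the block (-1.83). Leaving out 1 library moved the fold change by over 1.5 times for 60 of 182 called genes, 32 of them without non-tumor replicate 4, 13 without tumor 3, 11 without tumor 4, 7 without tumor 1, 4 and 3 without non-tumor replicates 2 and 1, and 1 without tumor 2. The sign of the log2 difference turned for genes that were not called. Axin1 was at -0.00 with DESeq2 and RLE scaling. Sfn was at 0.2, Egfr at 0.09 and Hoxd13 at 0.29 with library size alone, and Hoxd13 at 0.03 with upper-quartile scaling and 0.12 with the replicate block. Leaving out 1 library gave -0.59 to 0.33 for Hoxd13, -0.33 to 0.02 for Sfn and -0.19 to 0.99 for Ang4. It gave -0.09 to 0.19 for Ly6a, -0.03 to 0.13 for Axin1, -0.04 to 0.12 for Btrc and -0.02 to 0.57 for Csf1r.

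Lists moved by over 1.5 times in these places besides those given with them, among others. Members of the MHC list that fell numbered 12 without tumor 1, 5 with DESeq2, 7 with limma-voom and 1 with library size alone. Macrophage genes that rose numbered 6 with library size alone, and interferon-stimulated genes that fell 6 without tumor 1. Requiring 10 counts in every library removed low genes, leaving 3 of 9 enteroendocrine, 1 of 13 neuron, 3 of 15 neutrophil and 4 of 13 B cell calls. Same-numbered tumor and non-tumor libraries deviated together little (correlations 0.19, -0.12, 0.01 and 0.11, against -0.18 to 0.1 for unlike numbers). Whether the numbers pair samples of 1 mouse is not known, since pieces of the same mouse need not deviate together. The replicate block gave 2377 higher and 2632 lower genes. With the block 14 matrix genes rose and 8 MHC genes fell. Depth limits genes near the floor of 3 counts, several T cell genes among them.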

Other observations

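The 4 tumors differed among themselves in ways that the labels do not describe. Tumors 1 and 4 held more Hdc (173, 19.3, 36.4 and 225 CPM), Wnt10a (54.5, 25.1, 21.1 and 116 CPM), Apcdd1 (652, 162, 148 and 1256 CPM) and Mt4 (142, 48.8, 53.8 and 225 CPM) than tumors 2 and 3. Tumors 2 and 3 held more Pyy, Lgr5, Mmp13 (352, 921, 1168 and 254 CPM) and Col1a1 (505, 1310, 954 and 305 CPM). On the second principal component tumors 1 and 4 lay at 33.71 and 21.94, and tumors 2 and 3 at -35.99 and -16.72. These genes were picked after their values were seen, and the pattern was not tested.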
